A study of Mus musculus with 11 samples.

Results

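Gap43, Basp1, Marcks and Marcksl1 encode proteins of the inner face of the growth cone membrane. Their 4 mRNAs were followed here in RNA pulled down with ribosomes tagged in young excitatory neurons. The 4 genes were chosen by name, and each was found once among the 77179 Ensembl gene IDs of the deposited table (Gap43 ENSMUSG00000047261, Basp1 ENSMUSG00000045763, Marcks ENSMUSG00000069662 and Marcksl1 ENSMUSG00000047945). All 4 passed the filter on low values, as did 19008 genes in all. The mice carried NEX-Cre, which is expressed from the Neurod6 locus of forebrain excitatory neurons, together with a Cre-dependent eGFP-Rpl10a allele (NEX-Cre;Rpl10aeGFP/eGFP). Cortex and hippocampus were lysed together, and ribosomes carrying the tag were captured on anti-GFP beads (IP) from mice 7, 14 and 21 days old (named P7, P14 and P21), 3 libraries per age. Whole lysate (input) was sequenced at P7 in 2 libraries, replicate 1 of the genotype of the IP libraries and replicate 2 of Rpl10aeGFP/eGFP without Cre. All 11 libraries therefore came from animals with the eGFP-Rpl10a allele, and input was taken at P7 alone. The IP was aimed at ribosomes of the neurons in which the Cre was active. Both structures were taken at once, so cortical and hippocampal neurons cannot be told apart. No IP from mice without Cre was among the libraries, so RNA captured without the tag was not measured. Marker genes of other cell types were also present in the IP, as given below.

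A growth cone is the motile tip of a growing axon, and these proteins are among the most abundant at its membrane. Gap43 is held there by palmitoylation, binds calmodulin through an IQ motif and is released from it by protein kinase C. Basp1 (also CAP-23 or NAP-22), Marcks and Marcksl1 (also MacMARCKS) carry an N-terminal myristoyl anchor and a basic stretch that binds PIP2, a phospholipid of the inner membrane leaflet. Phosphorylation by protein kinase C or binding of calcium-loaded calmodulin lifts that stretch off the membrane, which frees PIP2 for proteins that steer actin. Gap43 and Basp1 are mainly neuronal, whereas Marcks is made in many cell types, glia and microglia among them.

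The RefSeq promoter table (GRCm38.p6, a different build from the mm39 named for the expression values) held 2 of the 4 genes, Basp1 and Marcksl1. Between P7 and P21 IP, as given below, Basp1 had the smallest and Marcksl1 the largest fall of the 4. The 250 bases before each start site are shown, 5′ to 3′ along the gene's strand, with every match to the GC box GGGCGG on either strand in capitals. Basp1 lies on the minus strand (chr15:25413765-25414014) and Marcksl1 on the plus strand (chr4:129513331-129513580).
Basp1: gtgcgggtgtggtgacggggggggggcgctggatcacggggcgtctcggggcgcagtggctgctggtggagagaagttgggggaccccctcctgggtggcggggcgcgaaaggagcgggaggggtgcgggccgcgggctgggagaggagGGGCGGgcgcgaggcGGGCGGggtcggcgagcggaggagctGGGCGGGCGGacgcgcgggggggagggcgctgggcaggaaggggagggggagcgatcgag
Marcksl1: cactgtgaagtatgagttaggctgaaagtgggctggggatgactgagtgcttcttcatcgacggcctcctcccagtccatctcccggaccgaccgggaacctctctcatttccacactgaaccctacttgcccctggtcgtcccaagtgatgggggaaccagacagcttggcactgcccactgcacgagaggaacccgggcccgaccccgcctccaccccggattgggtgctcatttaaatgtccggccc
The Basp1 window had 78.8% G or C, more than 98.3% of the 32851 windows of the table, whose median was 52.4%. It held 4 GC boxes, the last pair of them overlapping, and 32.7% of all windows held at least 1. The Marcksl1 window had 60.4% G or C and no GC box, and it held 1 match to CCAAT (in 33.8% of all windows) and 1 to CANNTG, the E-box that bHLH factors such as Neurod6 bind (in 66.2%). Neither window matched the E-boxes CAGCTG (13.0% of windows) or CAGATG (14.4%), both of which are also CANNTG, or the TATA sequence TATAAA (12.4%), on either strand. These matches describe the letters of the windows only.

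Levels are in TPM, an abundance corrected for transcript length and expressed relative to the whole library, which allows comparison between genes. Read numbers cannot be had from TPM, and precision is known here only from the spread between libraries. In each library 15154 to 17793 genes were at 1 TPM or above. Slc17a7, the vesicular glutamate transporter that defines these neurons, stood at 514 to 559.8 TPM in input, overlapping with 515 to 724 TPM in P7 IP (log2 change 0.21, limma adjusted p = 0.124), and at 2023 to 2091 TPM in P21 IP. Of 94 markers of excitatory neurons and 7 other cell classes, none was at 0 in every library of any group. Each log2 change was fitted with limma to log2(TPM + 1) and is given with its standard error, and adjusted p-values are Benjamini-Hochberg values of limma over all 19008 genes.

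Gap43 was the most abundant of the 4 in P7 IP and fell in both weeks. It stood at 2087 TPM in input replicate 1 and 1797 TPM in input replicate 2, at 2444, 2223 and 2268 TPM in P7 IP, at 1019, 1077 and 1141 TPM in P14 IP and at 593, 596 and 582 TPM in P21 IP. No 2 of the 4 groups overlapped. From 2312 TPM ± 117 (SD, n = 3) at P7 the mean fell to 1079 TPM ± 61.1 (SD, n = 3) at P14 and 590.2 TPM ± 7.18 (SD, n = 3) at P21, which was 25.5% of the P7 level. Its place among the 19008 genes, ordered from the highest TPM, went from 24 to 30 in P7 IP to 300 to 307 in P21 IP.

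Marcksl1 ran closest to Gap43 and had the steepest fall of the 4 between P14 and P21. It stood at 1481 and 1315 TPM in the inputs, at 1340, 1293 and 1309 TPM in P7 IP, at 596, 676 and 684 TPM in P14 IP and at 295, 289 and 295 TPM in P21 IP. P7 IP overlapped with input, and the 3 ages of IP did not overlap with each other. The mean fell from 1314 TPM ± 23.6 (SD, n = 3) through 652 TPM ± 48.6 (SD, n = 3) to 293 TPM ± 3.44 (SD, n = 3), 22.3% of the P7 level. RefSeq lists 5 pseudogene copies of Marcksl1, of which 2 were matched in the table and neither exceeded 0.151 TPM. The sources used here do not say how reads were divided among such copies, and the Marcksl1 level is uncertain to that extent.

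Basp1 varied most between the IP libraries and changed least with age. It stood at 1711 and 1873 TPM in the inputs, at 979, 1110 and 1330 TPM in P7 IP, at 662, 687 and 805 TPM in P14 IP and at 693, 641 and 541 TPM in P21 IP. P14 and P21 overlapped, since the highest P21 library lay above the 2 lower P14 libraries. The mean went from 1140 TPM ± 177 (SD, n = 3) through 718 TPM ± 76.4 (SD, n = 3) to 625 TPM ± 76.8 (SD, n = 3), 54.8% of the P7 level. Its coefficient of variation was 10.6% to 15.6% in the IP groups, against 1.22% to 5.66% for Gap43.

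Marcks was the least abundant in every group and stood far lower in the IP than in the tissue. It was at 316 and 284 TPM in the inputs, at 104, 106 and 113 TPM in P7 IP, at 55.75, 54.5 and 61.9 TPM in P14 IP and at 48.8, 43.5 and 45.5 TPM in P21 IP. None of its groups overlapped. The mean went from 108 TPM ± 4.41 (SD, n = 3) through 57.4 TPM ± 3.99 (SD, n = 3) to 45.9 TPM ± 2.68 (SD, n = 3), 42.7% of the P7 level. Even at P21, Gap43 stood at 12.9 times the level of Marcks.

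**Figure D1:**
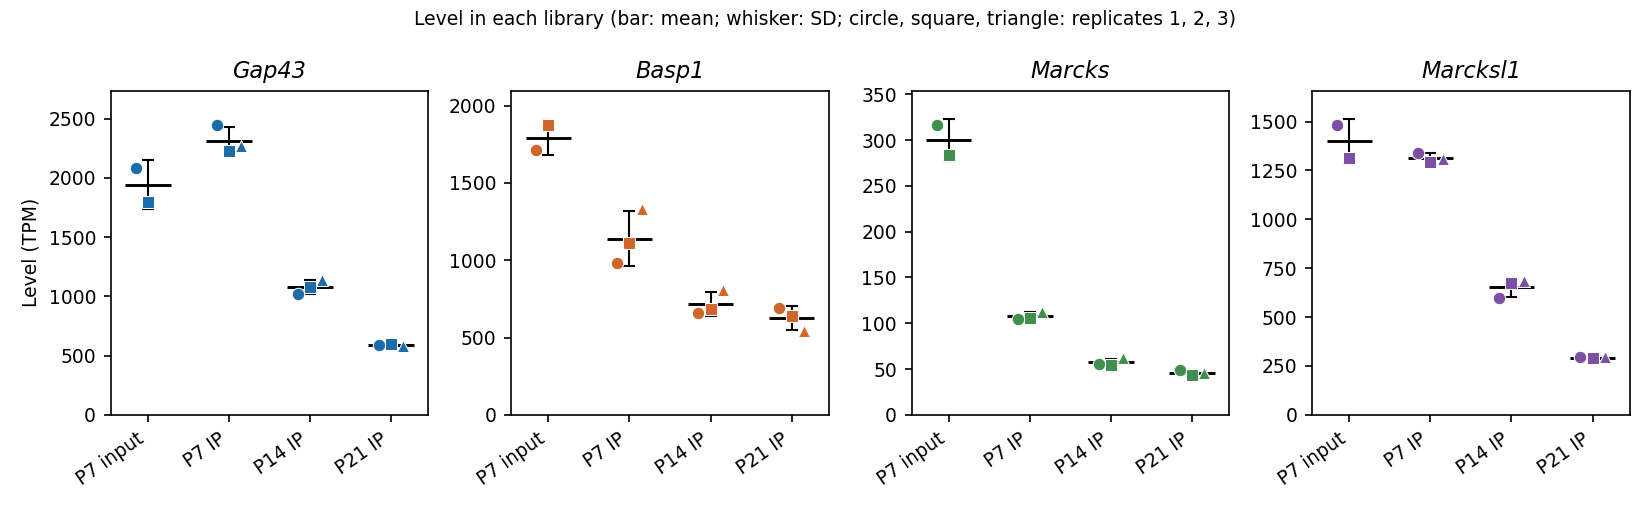
Level of each gene in TPM (vertical axis, from 0, with its own scale per panel) in each library of the 4 groups, with circles, squares and triangles for replicates 1, 2 and 3, bars for means and whiskers for SD. Gap43 falls from 2312 to 590.2 TPM between P7 and P21 IP and Marcksl1 from 1314 to 293 TPM, while the P14 and P21 points of Basp1 overlap.

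The order of the 4 mRNAs changed with age. In P7 IP it was Gap43, Marcksl1, Basp1 and Marcks, with Basp1 replicate 3 (1330 TPM) inside the range of Marcksl1, so that this pair of neighbours did not differ beyond their spread. In P14 IP Basp1 (718 TPM) and Marcksl1 (652 TPM) again overlapped, below Gap43. In P21 IP Basp1 (625 TPM) and Gap43 (590.2 TPM) overlapped at the top, and Marcksl1 (293 TPM) stood clearly below both. Gap43 and Basp1 also overlapped in input, where they were at 1942 TPM ± 205 and 1792 TPM ± 114 (SD, n = 2 each). Summed, the 4 genes made up 0.543% of all TPM in input, 0.487% in P7 IP, 0.251% in P14 IP and 0.155% in P21 IP.

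The comparison of P7 IP with P7 input asks which mRNAs the pull-down holds in a larger or smaller share than the tissue does. Gap43 was higher in the IP by 0.25 ± 0.07 (adjusted p = 0.0107), Basp1 lower (-0.66 ± 0.14, adjusted p = 0.0015) and Marcks lower (-1.47 ± 0.08, adjusted p = 9.01e-08). The change of Marcksl1, -0.09 ± 0.07, did not pass (adjusted p = 0.286). So 1 of the 4 was higher, where 18.6% of all tested genes were, and 2 were lower, where 51.1% were. The libraries of IP and input did not overlap for Gap43 on the higher side, as for 22.1% of genes, and for Basp1 and Marcks on the lower side, as for 56.3%. The median of all tested genes was itself -0.33, and the balance of calls turned on the scaling. Scaled by the median of ratios, 6250 genes were higher and 6145 lower in place of 3541 and 9718, and after quantile normalisation 6256 and 6025 were.

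These calls differ in how far they depend on scaling and on single libraries. The lower level of Marcks passed under all 21 alternatives. That of Basp1 did not pass with median-of-ratios scaling (-0.25, adjusted p = 0.154). Gap43 was higher by 0.67 with median-of-ratios scaling (adjusted p = 3.53e-05). It did not pass after rescaling without ribosomal protein, haemoglobin and mitochondrially encoded genes (0.15, adjusted p = 0.0787), nor when the Cre-negative library was left out, that is against the other input alone (0.15, adjusted p = 0.14). Marcksl1 changed sign with the scaling and passed on both sides, at 0.33 under median-of-ratios scaling (adjusted p = 0.0017) and at -0.41 after quantile normalisation (adjusted p = 0.00013).

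Markers of other cells were mostly lower in the P7 IP than in input, in a comparison where 51.1% of all tested genes were lower. All 12 astrocyte markers were lower in the IP, and their summed level was 216 to 293 TPM against 3404 to 3766 TPM in input, with the filament gene Gfap at 6.63 to 10.9 against 125 to 135 TPM. All 12 microglia markers were lower as well (29.5 to 35.5 TPM summed against 225 to 289 TPM), with the receptor gene Cx3cr1 at 0.547 to 0.905 TPM in the IP. So were all 12 endothelial and mural markers, all 8 oligodendrocyte precursor markers and 15 of 15 inhibitory neuron markers, 10 of 12 oligodendrocyte markers and 9 of 10 markers of dividing progenitors. The 13 excitatory neuron markers were not generally higher in the IP: 4 were higher, 5 lower and 4 did not pass (median -0.12). The part of these cells in the input level of Marcks or Basp1 was not tested. The median changes of the astrocyte and microglia markers were -3.15 and -3.13, beside -1.47 for Marcks and a median of -0.33 for all tested genes. Input is total lysate and IP is ribosome-bound RNA, so the cells that make an mRNA and the share of it on ribosomes cannot be told apart in this comparison.

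**Figure D2:**
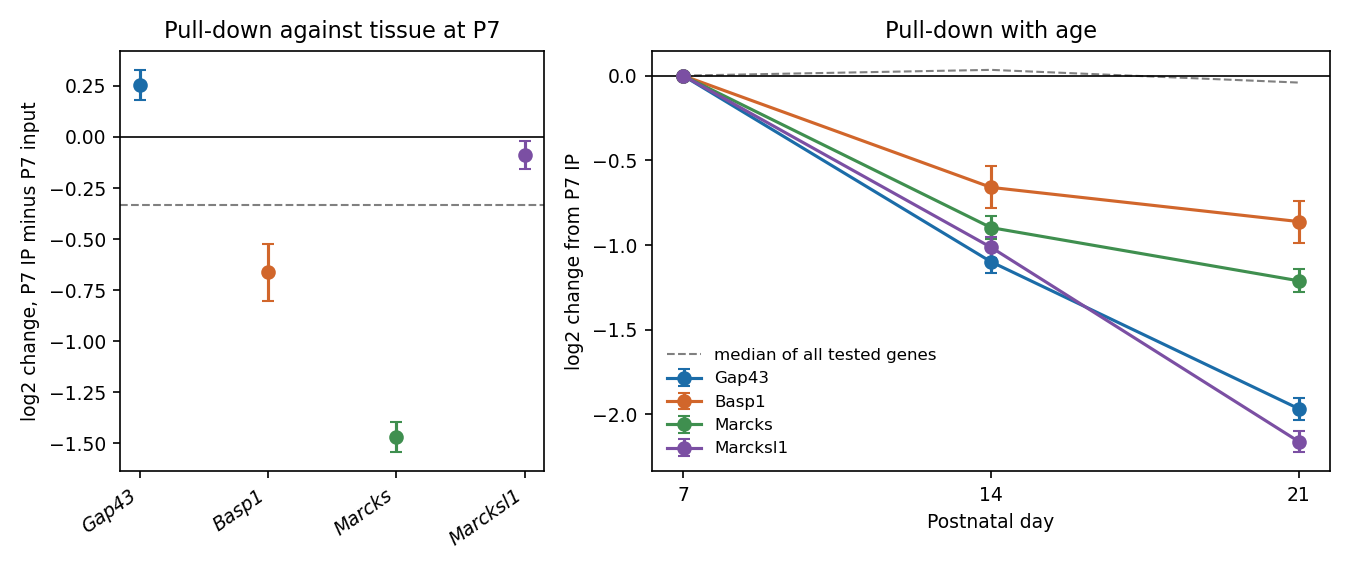
Log2 change of each gene on the log2(TPM + 1) scale, with standard errors of the limma fit: P7 IP minus P7 input on the left, and the change from P7 IP against postnatal day on the right. Dashed grey lines give the median of all tested genes. Gap43 alone lies above 0 on the left, and on the right Gap43 and Marcksl1 reach -1.97 and -2.16 at day 21 while Basp1 ends at -0.86.

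The comparison of P14 with P7 IP asks how ribosome-bound mRNA changed over the week from P7 to P14. All 4 genes fell, where 22.8% of tested genes did and 26.7% rose. Of the 1661 genes at least as abundant as Marcks in P7 IP, 40.5% fell and 31.9% rose. The libraries of the 2 ages did not overlap for any of the 4, as for 26.7% of genes on the lower side. Gap43 changed by -1.10 ± 0.07 on the log2 scale (adjusted p = 7.31e-07) and Marcksl1 by -1.01 ± 0.06 (adjusted p = 7.67e-07), to 46.7% and 49.6% of their P7 levels. Marcks fell by 0.90 ± 0.07 (adjusted p = 2.36e-06) and Basp1 by 0.66 ± 0.12 (adjusted p = 0.00126). Ordered from the largest fall, they took places 526, 640, 862 and 1573 of 19008, and the median of all genes was 0.03.

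From P14 to P21 the changes of the 4 genes spread over a wider range. Marcksl1 fell by 1.15 ± 0.06 (adjusted p = 6.09e-06) and Gap43 by 0.87 ± 0.07 (adjusted p = 2.66e-05), places 78 and 260 of 19008 from the largest fall. Marcks fell by 0.31 ± 0.07 (adjusted p = 0.00628). The change of Basp1, -0.20 ± 0.12, did not pass (adjusted p = 0.259). Whether it differed from that of Marcks in this week was not tested. So 3 of the 4 fell, where 19.7% of tested genes did, 8.53% rose and the median was -0.08. Those 3 also had no overlap between P14 and P21 libraries, as 30.1% of genes on the lower side. Of the 1661 genes at least as abundant as Marcks in P7 IP, 32.9% fell and 14.5% rose in this week. Over all genes 1621 rose and 3749 fell in this week, but 2732 and 2273 with median-of-ratios scaling, and under that scaling the change of Marcks was -0.20, at the threshold (adjusted p = 0.0498).

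Over both weeks Marcksl1 fell by 2.16 ± 0.06 (adjusted p = 5.07e-09), Gap43 by 1.97 ± 0.07 (adjusted p = 7.53e-09), Marcks by 1.21 ± 0.07 (adjusted p = 1.15e-07) and Basp1 by 0.86 ± 0.12 (adjusted p = 0.000134). All 4 fell, where 32.6% of tested genes did, and none overlapped between P7 and P21, as 34.7% of genes on the lower side. All 4 also passed the test of any change over the 3 ages, which 62.6% of tested genes passed. As fold changes of mean TPM these were 4.48 for Marcksl1, 3.92 for Gap43, 2.34 for Marcks and 1.82 for Basp1. The 1661 genes at least as abundant as Marcks in P7 IP were also counted: 47.4% of them fell, with a median of -0.13, and Marcksl1 and Gap43 took places 36 and 46 from the largest fall, Marcks 122 and Basp1 239. The age comparisons share libraries with each other, and P7 IP also enters the comparison with input. None of the 4 age calls over both weeks was lost under any of the 21 alternatives.

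The test of unequal weekly steps asks whether the step from P14 to P21 differed from the step from P7 to P14 on the log2 scale. Marcks alone of the 4 passed, with a difference of 0.58 ± 0.12 (adjusted p = 0.00544), its fall being smaller in the later week. Of all tested genes 7.46% passed in that direction and 16.8% in the other. With median-of-ratios scaling that split turned, from 1418 and 3195 genes to 2247 and 2040. The differences of Basp1 (0.46 ± 0.22, adjusted p = 0.154), Gap43 (0.23 ± 0.12, adjusted p = 0.18) and Marcksl1 (-0.13 ± 0.11, adjusted p = 0.415) did not pass, and Gap43 did under median-of-ratios scaling (0.40, adjusted p = 0.0425).

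Markers of glia rose in the IP over the same weeks as the 4 genes fell. From P7 to P21, where 27.3% of all tested genes rose and 32.6% fell, 10 of 12 astrocyte markers rose and none fell (565 to 720 TPM summed at P21 against 216 to 293 TPM at P7). All 12 oligodendrocyte markers rose (530.4 to 765 against 33.2 to 37.2 TPM), as did 11 of 12 microglia markers, with 1 lower (52.6 to 66.3 against 29.5 to 35.5 TPM). The counts of neuronal markers lay nearer to those shares, with 4 of 13 excitatory markers rising and 6 falling. Their summed level still went up, from 1218 to 1465 TPM at P7 to 3169 to 3378 TPM at P21. Most of that sum at P21 came from Slc17a7 and Camk2a, so it does not stand for the excitatory markers in general. Slc17a7 alone stood at 515 to 724 TPM at P7 and 2023 to 2091 TPM at P21. The mean of Camk2a went from 183 to 835 TPM, and no other excitatory marker averaged above 152.4 TPM at either age. Of 15 inhibitory markers 5 rose and 2 fell, at 102 to 116 TPM summed at P7 and 113 to 141 TPM at P21. The part of such cells in the age changes was not tested. In bulk RNA, fewer cells of a type and less RNA per cell cannot be told apart.

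Whether the 4 genes moved by the same factor was asked with the ratio of 2 genes within a library, which does not depend on how the library is scaled. Gap43 stood at 2.04 times Basp1 in P7 IP, 1.51 times in P14 IP and 0.949 times in P21 IP (geometric means). On the log2 scale this was 1.03 ± 0.28, 0.59 ± 0.08 and -0.08 ± 0.17 (SD, n = 3 each), and no library of 1 age overlapped with another age. Basp1 over Marcksl1 moved furthest, from 0.861 to 1.10 to 2.12, a log2 change of 1.30 between P7 and P21. The ranges of its P7 and P14 libraries touched most closely, at 0.02 and 0.02 log2, and P21 lay apart at 0.87 to 1.23.

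The ratio of the nearest pair, Gap43 over Marcksl1, was 1.76 in P7 IP, 1.66 in P14 IP and 2.01 in P21 IP. On the log2 scale P7 (0.78 to 0.87) lay above P14 (0.67 to 0.77) and P21 (0.98 to 1.04) above both. Gap43 over Marcks fell from 21.5 through 18.8 to 12.9. Marcks over Marcksl1 stayed near 0.0819 and 0.0881 at P7 and P14, where its libraries overlapped, and reached 0.157 at P21. Basp1 over Marcks was 10.5, 12.5 and 13.5, and its libraries overlapped between P14 and P21 alone.

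All 6 ratios were tested over the 9 IP libraries with an exact permutation test of the differences among ages and adjusted over the 6 pairs. Ratios of other gene pairs were not examined, so the share of pairs that would pass, or not overlap, is unknown here. Of single genes, 62.6% passed the limma test of any change over the 3 ages. For Gap43 over Basp1, Gap43 over Marcks, Gap43 over Marcksl1 and Basp1 over Marcksl1 the exact p was 0.00357, the smallest this design can give (adjusted p = 0.00536). Marcks over Marcksl1 had an exact p of 0.0107 (adjusted p = 0.0129) and Basp1 over Marcks 0.0286 (adjusted p = 0.0286). The last call was lost in 7 of the tests that left out 1 of the 9 IP libraries. These were without P7 IP replicate 1 or 2, any 1 of the P14 IP replicates, or P21 IP replicate 1 or 2 (adjusted p = 0.0714 to 0.129 by the exact test). The input libraries do not enter this test, so leaving them out cannot change it.

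**Figure D3:**
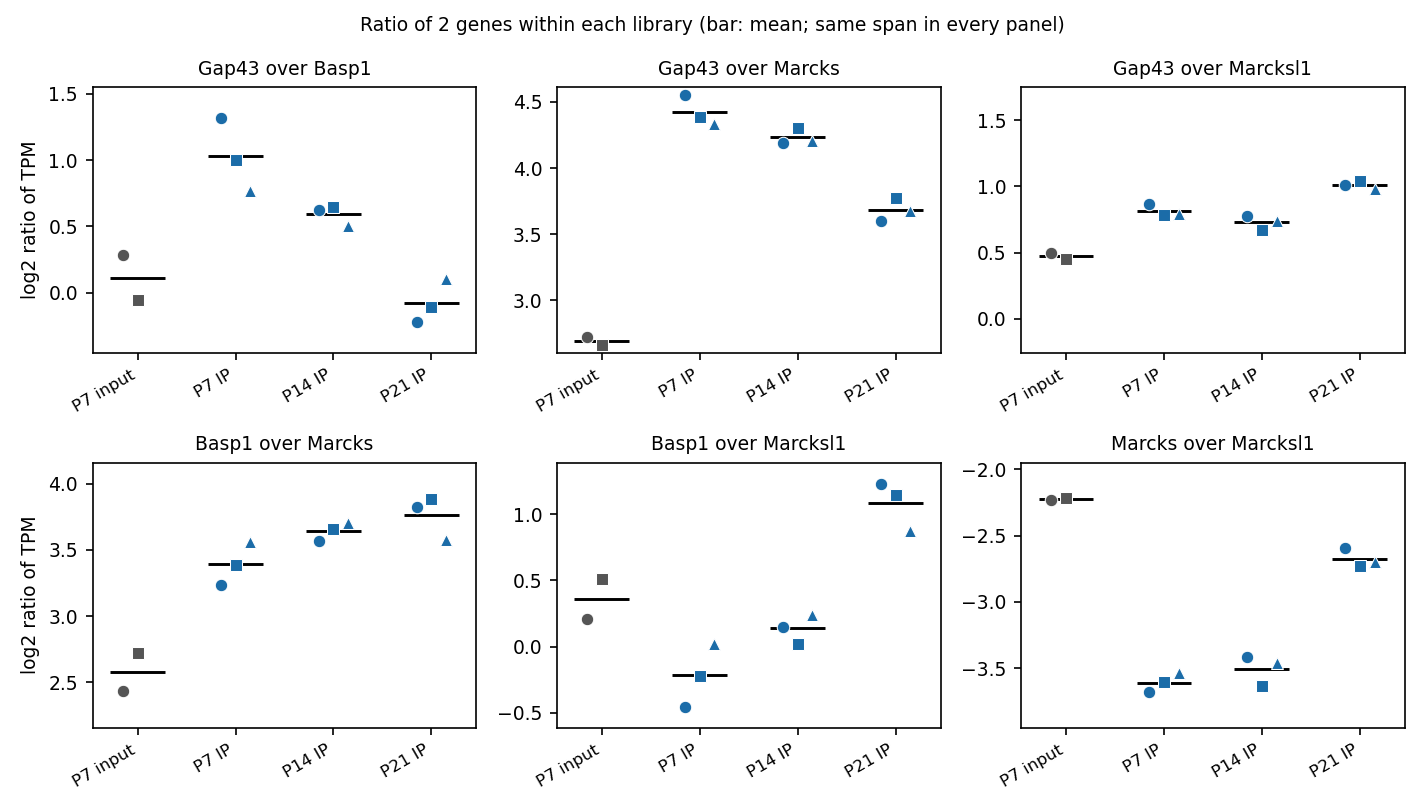
Log2 ratio of TPM of 2 genes within each library (vertical axis, with the same span in every panel) in the 4 groups, with circles, squares and triangles for replicates 1, 2 and 3 and bars for means. Gap43 over Basp1 descends from 1.03 in P7 IP to -0.08 in P21 IP, while Gap43 over Marcksl1 stays between 0.67 and 1.04 in the IP libraries.

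The ratios of the 4 genes in P7 IP were also set beside those in input, as a description. Gap43 over Marcks was 6.47 in input and 21.5 in P7 IP, and Gap43 over Basp1 1.08 and 2.04. Marcks over Marcksl1 was 0.215 and 0.0819, Basp1 over Marcks 5.98 and 10.5, and Gap43 over Marcksl1 1.39 and 1.76, none with overlap between IP and input. Basp1 over Marcksl1 was 1.28 in input and 0.861 in IP. With 3 against 2 libraries an exact permutation test cannot give a p below 0.1, the value of the first 5 pairs, and the sixth had 0.2, although its libraries did not overlap.

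The genes with the most similar profile over the 11 libraries were sought among 7874 genes of at least 10 TPM on average, by the root mean square difference of log2 values after centring each gene on its mean. Nearest to Gap43 were Stmn2 (0.09 log2 units), which encodes the growth cone protein SCG10 that binds tubulin, Fxyd6 (0.10), a regulator of the sodium pump, and Sqle (0.10), an enzyme of sterol synthesis. Marcksl1 took place 31 (0.18), and Basp1 and Marcks places 669 and 1758. Nearest to Marcksl1 were Rgma (0.07), which encodes a guidance molecule of axons, the receptor phosphatase gene Ptpro (0.10) and Tspan6 (0.12), with Gap43 at place 20. Nearest to Basp1 were Mageh1 (0.13), Stard4 (0.13), a carrier of sterols, and the topoisomerase gene Top2b (0.14). Nearest to Marcks were Slc1a4 (0.11), a transporter of neutral amino acids, Sbf2 (0.15) and Plscr3 (0.15). These distances are a description, and the 11 libraries they rest on fall into only 4 groups.

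Stmn2 shows the closest match of Gap43 in TPM. Its mean went from 1679.6 TPM in input to 1909.6 TPM in P7 IP, 1034 TPM in P14 IP and 513 TPM in P21 IP, with a log2 change of -1.89 ± 0.06 over both weeks (adjusted p = 7.94e-09) beside -1.97 for Gap43. Slc1a4, nearest to Marcks, went from 60.7 TPM in input to 21.99 TPM in P7 IP and 8.83 TPM in P21 IP.

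Other genes of the same machinery were described by lists, between P7 and P21 IP, where 27.3% of all tested genes rose and 32.6% fell with a median of -0.04. Of 26 genes listed for microtubules and adhesion in growing axons, 22 fell and 2 rose, with a median of -1.55. The list also held genes of other kinds, all of which fell. These were the transcription factor genes Sox11 (-2.25) and Klf7 (-1.80), and Mllt11 (-0.96), Rufy3 (-0.78) and Rtn1 (-0.45). The tubulin gene Tubb2b (-5.49 ± 0.13) and Dpysl3 (-5.16 ± 0.13), a collapsin response mediator, had the largest falls of the list, and the adhesion gene Nrcam (0.90) and the kinase gene Dclk1 (0.65) rose. Of 30 actin regulators 15 fell and 6 rose (median -0.16). Among them Vasp (-1.97 ± 0.11) and Evl (-1.14), which promote filament growth at the leading edge, fell, and the cyclase-associated gene Cap2 (2.66 ± 0.09) and the filament-capping gene Tmod1 (2.20) rose.

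Among genes for calmodulin and IQ-motif proteins, the partners and relatives of Gap43, Nrgn, Pcp4l1 and Pcp4 rose. Nrgn, the dendritic relative of Gap43 that shares its IQ motif, rose from 2306 TPM in P7 IP to 5414 TPM in P21 IP (1.23 ± 0.07, adjusted p = 2.15e-07), so that the level of Nrgn was close to that of Gap43 at P7 and far above it at P21. The calmodulin genes Calm2 (0.06, adjusted p = 0.43) and Calm3 (-0.01, adjusted p = 0.944) did not pass, though Calm3 did after quantile normalisation (-0.27, adjusted p = 0.0027). Pcp4l1 changed by 2.17 and Pcp4 by 1.38, both encoding small IQ-motif proteins.

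Of 14 enzymes that make or consume PIP2 and related lipids 11 rose and 2 fell (median 0.74). The lipid kinase genes Pip5k1b (2.17) and Pip4k2c (2.01 ± 0.07) rose, and Pip4k2b (-0.62) and the phospholipase gene Plcg1 (-0.47) fell. Of 18 kinases and phosphatases known to act on these proteins 9 rose and 4 fell (median 0.12). The calcineurin subunit genes Ppp3r1 (1.46) and Ppp3ca (1.20 ± 0.07) rose, and the protein kinase C gene Prkcd (-1.42) and Mapk8 (-1.01), a JNK gene, fell. Several of these genes are also made outside growth cones, and no test of a list was made.

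**Figure D4:**
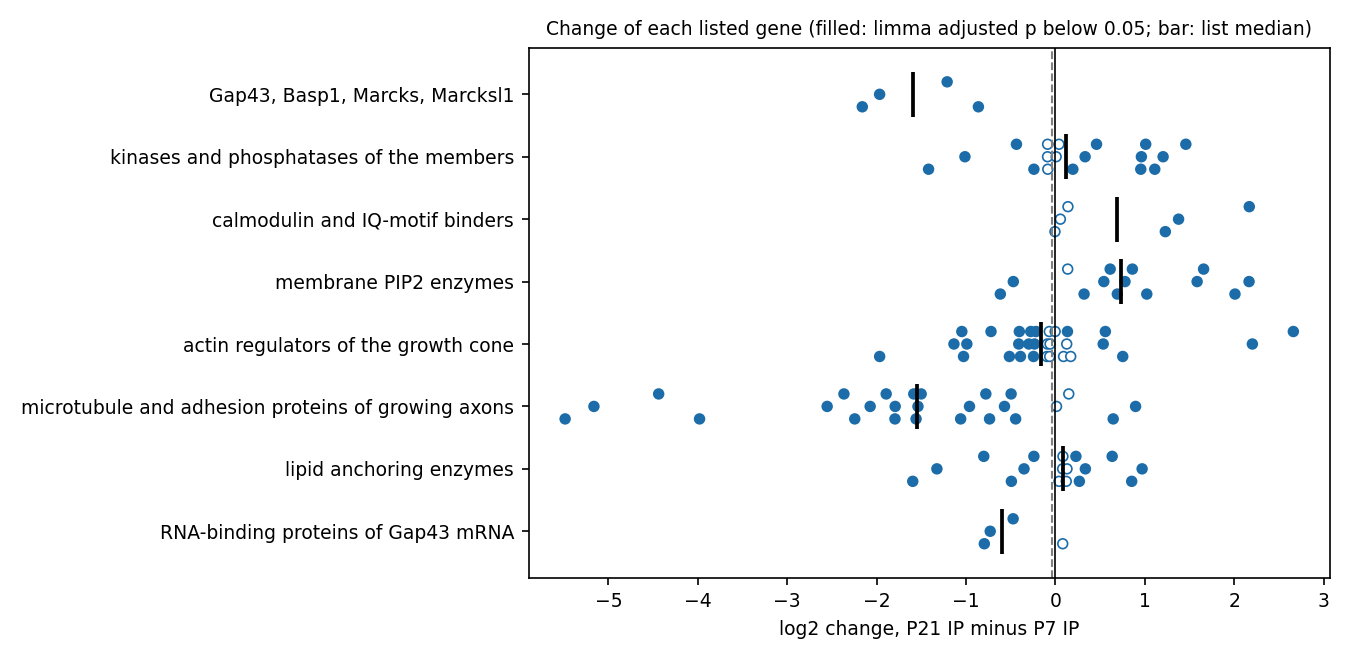
Log2 change from P7 to P21 IP (horizontal axis) of each tested gene of the 4 members and 7 lists (rows), filled where the limma adjusted p was below 0.05, with list medians as bars and the median of all genes dashed. The members (median -1.59) and the microtubule and adhesion list (median -1.55) lie to the left, and the PIP2 enzymes (median 0.74) to the right.

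Of 17 enzymes of lipid anchoring 6 rose and 6 fell (median 0.08). Nmt1, which attaches the myristoyl group, rose from 28.6 to 57.1 TPM (0.97 ± 0.05, adjusted p = 7.14e-08), whereas Nmt2 did not pass (0.08, adjusted p = 0.32) except under median-of-ratios scaling (0.15, adjusted p = 0.0398). The palmitoyl transferase gene Zdhhc2 (-1.33 ± 0.07) and the depalmitoylase gene Abhd17c (-1.60 ± 0.06) fell, and Zdhhc8 (0.85) rose. Of 5 RNA-binding proteins known to bind Gap43 mRNA 4 were tested and 3 fell (median -0.60). Elavl4, the stabilising factor HuD, fell by 0.47 ± 0.08 (adjusted p = 0.000406), Elavl2 by 0.80 and Elavl3 by 0.73. Khsrp, which destabilises the mRNA, did not pass (0.08, adjusted p = 0.225) but did under median-of-ratios scaling (0.15, adjusted p = 0.0332) and quantile normalisation (0.13, adjusted p = 0.0365), and Igf2bp1, at 0.0484 TPM in P7 IP, was not tested.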

How the data were processed

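Polyadenylated RNA from 11 libraries was analysed as 1 table of TPM values deposited by the authors. The tools named in the submitters' processing notes are Salmon 1.10.0, fastp 1.0.1 and DESeq2 1.46.0, with build mm39. Their roles, the annotation and the use of strand are unknown here. Columns were matched to samples by name and symbols to Ensembl IDs by a table (50886 matched). The 19008 genes that reached 1 TPM in 2 or more libraries were fitted as log2(TPM + 1) with limma 3.58.1 in R 4.3.3, with 1 mean per group, 7 residual degrees of freedom, a trended empirical Bayes step and calls at adjusted p below 0.05. The labels call the IP libraries biological replicates, and the input group joins 2 genotypes. Ratios within libraries were tested by exact permutation in Python 3.11.15.

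The 4 genes and the 7 pathway and 8 marker lists (116 and 94 entries) were chosen with earlier results of these data known. Named list genes are the 2 largest rises and 2 largest falls that passed between P7 and P21, the 3 nearest profiles per gene, the first-named cell markers and Calm2, Calm3, Nrgn, Nmt1, Nmt2, Elavl4, Igf2bp1 and Khsrp. The code was tested on simulated data. Alternatives were pseudocounts of 0.1 and 5 TPM, no filter, a filter on a mean of 5 TPM, scaling by median of ratios, quantile normalisation, restricted rescaling, no trend, only the groups compared, a replicate block and each library left out. Protein sequences were not used here. A result on 1 further gene is not reported here.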

Additional observations from a re-analysis of the deposited data

Results flagged for a closer look

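Marcks fell less in the third postnatal week than in the second. The difference between the 2 weekly log2 steps, 0.58 ± 0.12, passed the test of the steps themselves (limma adjusted p = 0.00544) and was 0.51 to 0.69 when each of the 11 libraries was left out in turn. All 3 P14 libraries enter both steps with opposite sign, so their level bears on both.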

How the results depend on the processing

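The age changes of the 4 genes kept their direction and their side of the threshold under all 21 alternatives. At P7, Gap43 in IP against input did not pass after rescaling that leaves out ribosomal protein, haemoglobin and mitochondrially encoded genes (0.15, adjusted p = 0.0787), and it was 0.15 to 0.36 with each library left out. With median-of-ratios scaling Basp1 did not pass (-0.25), Marcksl1 passed as higher (0.33), and the unequal steps of Gap43 passed (0.40). Marcksl1 passed as lower after quantile normalisation (-0.41) and that rescaling (-0.19). The Basp1 over Marcks ratio, 0.37 log2 from P7 to P21, did not pass with 5 TPM added (0.29, adjusted p = 0.125 by the exact test) and was 0.29 to 0.46 with each library left out. The cause was not tested. Genes called at P7 became 6250 higher and 6145 lower with median-of-ratios scaling, 6256 and 6025 after quantile normalisation, and 5421 lower with a mean of at least 5 TPM, where fewer genes were tested. Median-of-ratios scaling gave 2732 higher and 2273 lower for P21 against P14 and 2247 and 2040 for unequal steps, which without 1 library were 868 to 1361 (lowest without P14 IP replicate 1) and 2065 to 3338 (lowest without P14 IP replicate 2). Reversed signs for P7 IP against input were Elavl2 (0.014), Mapk8 (0.17), Nmt1 (0.25), Pip4k2c (0.10) and Ppp3ca (0.17) with median-of-ratios scaling, and Nmt1 (0.11) and Pip4k2c (0.056) after quantile normalisation. All 9 correlations across genes between same-numbered IP libraries were above 0 (0.01 to 0.18), and 12 of 18 between other numbers were below 0 (-0.12 to 0.10). Only 1 of the 9 exceeded 0.1, and 2 of 9 libraries correlated best with their own number at both other ages, so the numbers were not used as pairs. With the replicate block 5195 genes rose and 4425 fell at P14 against 5073 and 4341 without it, and no call on the 4 genes changed. Depth is unknown, and 3 or 2 libraries a group limit the precision.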
